A study of Mus musculus with 16 samples.

Results

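Voltage-gated sodium and calcium channel genes were followed in the spinal cord of transgenic mice as a family chosen by gene symbol alone. A gene was a member when its symbol began with Scn, a number and a or b, or with Cacna, Cacnb or Cacng. The rule found 39 of the 18167 genes of the deposited table, 14 of them sodium channel genes and 25 calcium channel genes. The rule uses no measured value, although it was chosen with earlier results of these data known. The symbols also bring in genes that are not channel pores or subunits in every tissue: *Scn7a* encodes a sodium sensor, and most *Cacng* products expressed in the nervous system are partners of AMPA-type glutamate receptors.

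Voltage-gated sodium channels open on depolarization and drive the upstroke of the action potential, and each consists of a pore-forming alpha subunit with beta subunits that tune its gating and anchor it at the axon initial segment and the nodes of Ranvier. Voltage-gated calcium channels turn depolarization into calcium entry, which releases transmitter at nerve terminals and shapes rhythmic firing in cell bodies and dendrites. In the spinal cord both families set how motor neurons and interneurons fire, and they are studied in amyotrophic lateral sclerosis because motor neuron excitability is altered in that disease.

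RNA was taken from the spinal cord of 16 mice labelled as male, 1 library per mouse, and sequenced from polyadenylated RNA with a kit that keeps the strand. The study asked how gene expression differs between mice with mutant human profilin 1 and mice with the normal human protein, before symptoms and at the end of the disease. Mutant mice, of line 838Kiaei on a C57BL/6N background, carried human profilin 1 with the G118V change. Control mice, of line 850Kiaei, carried human profilin 1 without it, so all 4 groups express a human profilin transgene from the prion protein promoter, which is active well beyond motor neurons, and each genotype is 1 transgenic line.

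The 3 mutant young mice (MY) and the 3 wild-type young mice (WY) were 50 days old. The 5 mutant old mice (MO), at end stage, when they could no longer right themselves, were 198, 190, 245, 224 and 175 days old. The 5 wild-type old mice (WO) were 190 days old in 3 cases and 294 days old in the other 2. The libraries were made in 2 batches. Batch 1 held the first 3 mice of every group and batch 2 held MO4, MO5, WO4 and WO5, so that all young mice were in batch 1, and in WO batch and age cannot be told apart.

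Levels are given as the deposited log2(1 + FPKM), where FPKM is fragments scaled to transcript length and to the mapped fragments of the library, after the authors' adjustment for batch. Because FPKM is scaled by length, levels can be compared between genes. A change is a log2 fold change, the mean of the group named second minus the mean of the group named first, and it understates changes in genes of low level because 1 was added to every FPKM. The read depth behind each gene is unknown, so precision rests on the spread between mice. Differences were tested with limma over all 18167 genes. A gene is said to have passed the FDR when the Benjamini-Hochberg false discovery rate was at or below 0.05, and to be differentially expressed when its fold change was also at least 1.5 in either direction.

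A pair of libraries stood apart. MO5 went against the label male: its *Xist* level was 3.21, against at most 0.37 in the other libraries, and its *Ddx3y* level was 1.95, against at least 4.06. Without MO5 the members past the FDR numbered 13 in MY vs. MO, 15 in WO vs. MO and 9 in the interaction of age and genotype, where all 16 mice gave 13, 13 and 8. All-gene calls without MO5 were 2178 higher and 2131 lower in MY vs. MO and 2516 and 2192 in WO vs. MO. With all mice they were 2377 and 2269, and 2730 and 2345. In the interaction they were 1847 positive and 1258 negative without MO5, and 1903 and 1307 with all mice. WY1 had the lowest level of the WY mice in 20 of the 30 members with a mean of at least 1 (66.7%), against 38.2% of 13530 genes at that level, and its level lay a median of 0.16 below the mean of WY2 and WY3 in those members. Without WY1 the members past the FDR numbered 0 in WY vs. WO, 0 in WY vs. MY and 8 in the interaction. Over all genes the interaction without WY1 gave 1453 positive and 882 negative calls. The 8 members were not the same as with WY1, since *Cacna1i* lost its call (FDR 0.125) and *Cacng2* gained one (FDR 0.0463).

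Of the 39 members, 30 had a mean level of at least 1 over the 16 mice. The 9 below it include the skeletal muscle genes *Scn4a*, *Cacna1s* and *Cacng1*, the sensory neuron pores *Scn10a* and *Scn11a*, and *Scn7a*. Their means ran from 0.01 for *Scn10a* to 0.90 for *Scn7a*, and 0 of the 9 passed the FDR in any comparison. At an unadjusted p under 0.05 limma gave 1 of the 9 in MY vs. MO, 1 in WY vs. WO and 0 in the other comparisons. Of all 18167 genes it gave 6673 in MY vs. MO and 2447 in WY vs. WO. Some markers of sensory neurons and muscle were near 0 in the same libraries, with *Trpv1* at most 0.12, *Prdm12* at most 0.09, *Myh1* at most 0.11 and *Myh4* at most 0.04 in any mouse. Others were higher: *Tlx3* reached 2.16, *P2rx3* 1.01, *Avil* 0.74, *Mylpf* 2.08 and *Tnni2* 1.71.

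Among the members of high level were *Scn4b*, with a mean of 6.93, *Cacng7* at 6.46, *Scn1a* at 5.54, *Scn8a* at 5.05 and *Scn2b* at 4.86. *Scn4b* and *Scn2b* encode sodium channel beta subunits, and *Scn1a* and *Scn8a* encode the sodium channel pores that dominate mature central neurons. In WO mice *Scn4b* was 7.19 ± 0.05 (SD, n = 5). *Scn8a* at 5.23 ± 0.10 (SD, n = 5) and *Scn2b* at 4.91 ± 0.05 (SD, n = 5) were further apart than their spread in WO mice. The calcium channel pores were lower: the most abundant, *Cacna1a*, had a mean of 4.00 over all mice.

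The changes at end stage were read in a pair of comparisons that share the MO mice, MY vs. MO within the mutant line and WO vs. MO between the genotypes among old mice, whose ages were not matched. In MY vs. MO, 12 of 39 members (30.8%) passed the FDR with a lower level and 1 (2.56%) with a higher level, where 12.5% of all genes passed it lower and 13.1% higher. In WO vs. MO, 12 members passed it lower and 1 higher, where the shares of all genes were 12.9% and 15.0%. The median change of the members was -0.15 in MY vs. MO and -0.06 in WO vs. MO, and over all genes it was 0.00 in both. The WO vs. MO median was -0.09 without WO1, -0.04 without WO5 or MO2 and -0.02 among batch 1 mice. Among the 30 members with a mean of at least 1 the medians were -0.20 and -0.19. In MY vs. MO 0 members were differentially expressed, and 0.787% of all genes were differentially expressed with a lower level. At an unadjusted p under 0.05 limma gave 20 of the 39 members and 6673 of the 18167 genes in MY vs. MO. Without MY1, MY2 or MY3, 8 members passed the FDR in MY vs. MO. Calls over all genes fell in the same fits, from 2377 higher and 2269 lower with all mice. They were 1454 and 1132 without MY1, 1660 and 1403 without MY2, and 1511 and 1162 without MY3. In WO vs. MO 1 member, *Scn4b*, was differentially expressed, against 0.517% of all genes with a lower level. Lower past the FDR in both comparisons were 10 members, and in either 14. The comparisons share the MO mice and the overlap over all genes is not given here, so the 10 is a count only. By family, 4 of 14 sodium channel genes and 8 of 25 calcium channel genes passed it lower in MY vs. MO, and 5 and 7 in WO vs. MO.

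The direction over all genes depends on the scaling. With the deposited values 2377 genes passed the FDR higher and 2269 lower in MY vs. MO (51.2% higher), and after quantile normalization 2068 higher and 3179 lower (39.4%). In WO vs. MO the split was 2730 higher and 2345 lower (53.8%), and 2341 and 3409 (40.7%) after it. The members moved the same way, with 16 lower and 1 higher in MY vs. MO and 17 lower and 1 higher in WO vs. MO after quantile normalization. The median over all genes was then -0.03 in each comparison.

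**Figure D1:**
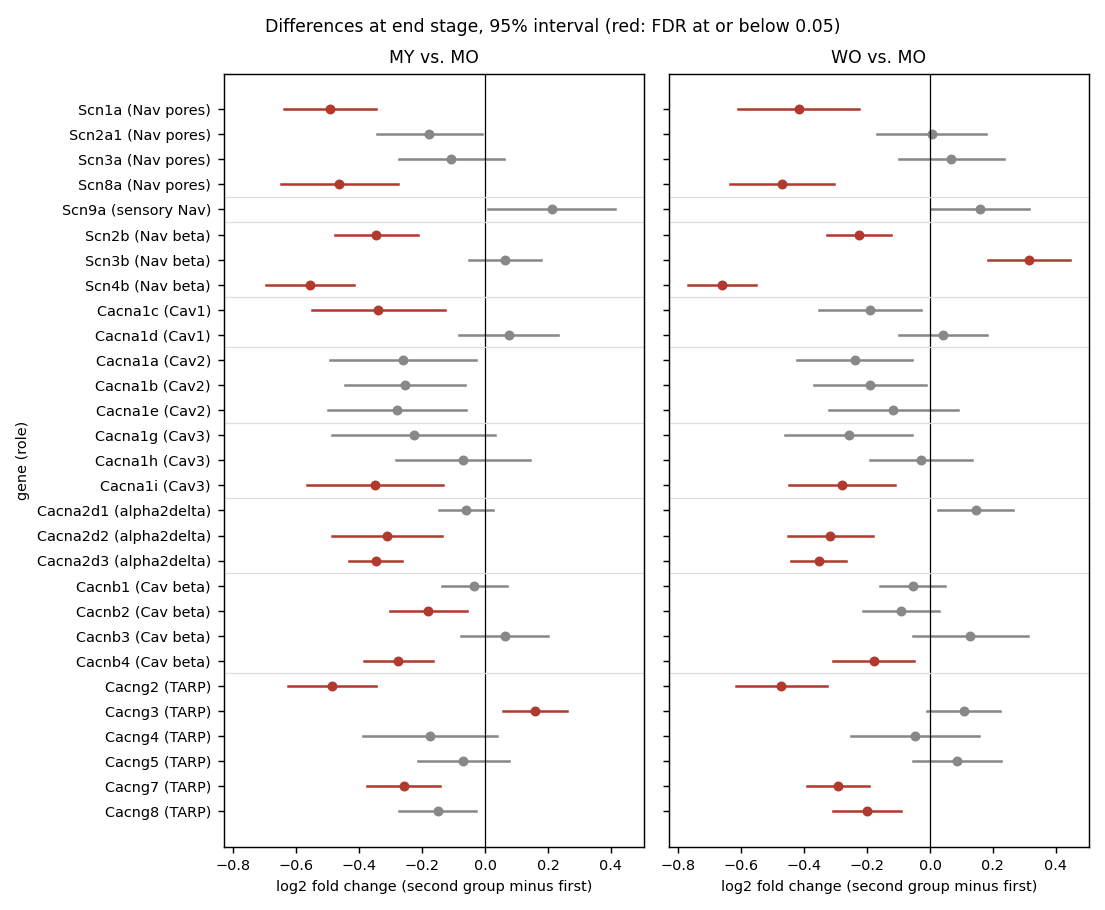
Log2 fold change of 29 of the 30 members with a mean of at least 1 (1 is not drawn), in MY vs. MO (left) and WO vs. MO (right), ordered by role. Points are limma estimates, bars are 95% intervals, and red marks an FDR at or below 0.05. *Scn4b* lay lowest in both comparisons, at -0.56 and -0.66, and 1 member stood higher past the FDR in each.

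*Scn1a* encodes the pore found mainly in inhibitory interneurons and also in motor neurons. Its level was 5.76, 5.69 and 5.80 in MY mice and 5.39, 5.67, 5.89, 5.71 and 5.73 in WO mice. In MO mice it was 5.35, 5.20, 5.11, 5.28 and 5.35, and every MO mouse lay below every MY and every WO mouse. The WY mice were at 4.98, 5.95 and 5.70, with WY1 below all MO mice. The limma change of *Scn1a* was -0.49 ± 0.06 (SE) in MY vs. MO with an FDR of 0.00117 and -0.42 ± 0.09 (SE) in WO vs. MO with an FDR of 0.00469. The WO vs. MO change had an FDR of 0.0835 among batch 1 mice alone, where it was -0.43, and FDRs from 0.000652 to 0.0835 over all alternatives.

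*Scn8a* encodes the pore that gathers at mature nodes of Ranvier and axon initial segments. Its level was 5.25, 5.17 and 5.24 in MY mice, 5.11, 5.21, 5.34, 5.15 and 5.33 in WO mice, and 4.87, 4.63, 4.65, 4.68 and 4.96 in MO mice. The MO mice again lay below every MY and WO mouse, with MO1 and MO5 highest among them. The WY mice were at 4.79, 5.35 and 5.10. *Scn8a* changed by -0.46 ± 0.08 (SE) in MY vs. MO (limma, FDR 0.00469) and by -0.47 ± 0.07 (SE) in WO vs. MO (FDR 0.00102), and both calls held under every alternative tried. In bulk tissue, fewer cells of a type and less RNA per cell cannot be told apart, here and in every difference below.

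*Scn2a1*, which GENCODE calls *Scn2a*, encodes the pore of unmyelinated axons and developing initial segments. It stood at 3.66, 3.63 and 3.71 in MY mice, 3.26, 3.50, 3.51, 3.66 and 3.50 in WO mice and 3.71, 3.40, 3.45, 3.39 and 3.50 in MO mice, and at 3.23, 3.73 and 3.59 in WY mice. The groups overlapped. Its change missed the FDR in MY vs. MO (-0.18, limma FDR 0.117) and in WO vs. MO (0.00, FDR 0.978, 95% interval -0.17 to 0.18). The MY vs. MO change reached -0.23 with an FDR of 0.00739 without MO1, the MO mouse with the highest level, against FDRs of up to 0.299 under the other alternatives. *Scn3a*, the pore most used before birth, was lower in level, at a mean of 2.07, and missed the FDR in both comparisons. That *Scn1a* and *Scn8a* passed the FDR and *Scn2a1* did not was not itself tested as a difference.

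The beta subunits held the largest change of the family. *Scn4b* encodes a beta subunit linked to resurgent sodium current and fast repetitive firing. Its level was 7.11, 7.02 and 7.13 in MY mice and 7.20, 7.16, 7.18, 7.15 and 7.27 in WO mice. In MO mice it was 6.57, 6.42, 6.44, 6.58 and 6.64, and in WY mice 6.70, 7.20 and 7.03. All 5 MO mice lay below every other mouse, with WY1 next above them. *Scn4b* changed by -0.56 ± 0.06 (SE) in MY vs. MO (limma, FDR 0.000593), and by -0.66 ± 0.05 (SE) in WO vs. MO (FDR 2.16e-05), a fall of 36.8% in 1 + FPKM. Within batch 1 the MO mean lay 0.71 below the WO mean, and within batch 2 0.60 below it. The FDR stayed at or below 0.00548 in MY vs. MO and at or below 0.000824 in WO vs. MO over all alternatives. In MY vs. MO 1 member passed the fold of 1.5 among batch 1 mice, where *Scn4b* stood at -0.61, and 1 did without MY2.

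*Scn2b* also passed the FDR and is named here after its values were seen. *Scn2b*, whose product is linked covalently to the pore, changed by -0.35 in MY vs. MO (limma, FDR 0.00377) and by -0.23 in WO vs. MO (FDR 0.00457). MO5, at 4.84, lay far above the other MO mice, which were between 4.63 and 4.68, and it reached the lowest WO mouse at 4.84.

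*Scn3b* went the other way and was named after its values were seen, as the 1 member higher past the FDR in WO vs. MO. Its product is the beta subunit most abundant in the developing nervous system. Its level was 3.07, 3.20, 3.14, 3.39 and 3.17 in WO mice and 3.61, 3.45, 3.51, 3.44 and 3.53 in MO mice. Every MO mouse lay above every WO mouse. The change was 0.31 ± 0.06 (SE) with a limma FDR of 0.00276, and the call held under all 17 alternatives. Young mice stood near the MO mice: MY mice were at 3.40, 3.50 and 3.44 and WY mice at 3.43, 3.40 and 3.33, and the MY vs. MO change of 0.06 missed the FDR (0.404). In WY vs. WO *Scn3b* changed by -0.20 with an unadjusted limma p of 0.0212, which missed the FDR (0.253).

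**Figure D2:**
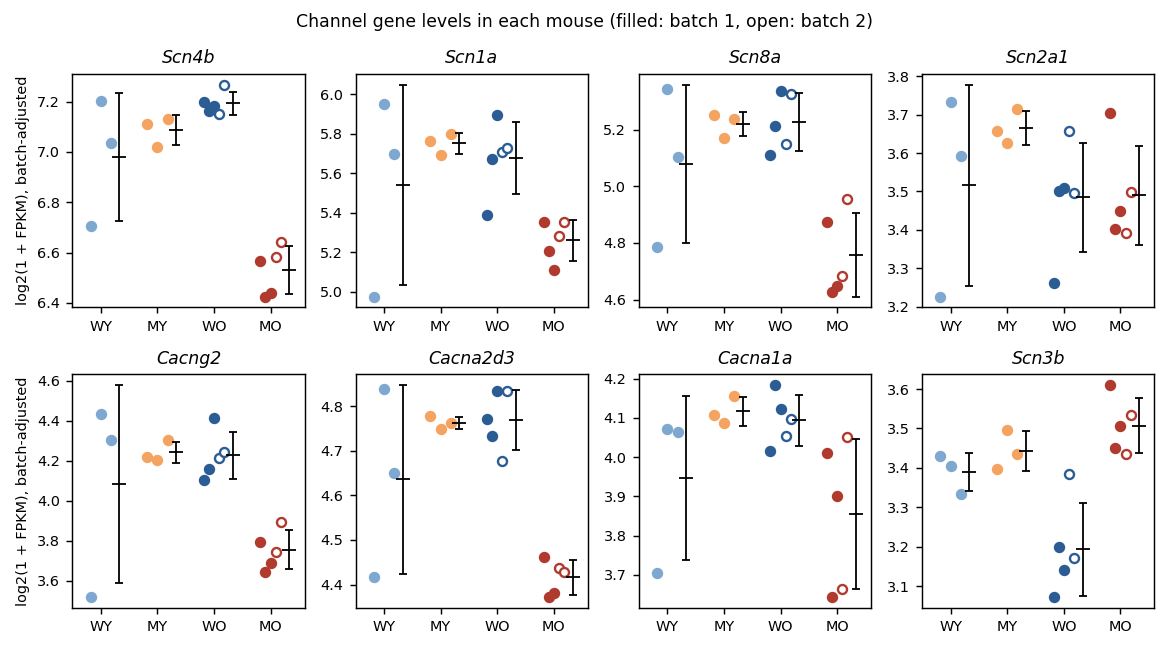
Level, as log2(1 + FPKM) after batch adjustment, of 8 members in each mouse by group, with filled points for batch 1 and open points for batch 2, and the mean ± SD beside them. The MO mice lay below all MY and WO mice in *Scn4b*, *Scn1a*, *Scn8a*, *Cacng2* and *Cacna2d3*, overlapped the WO mice in *Scn2a1* and *Cacna1a*, and lay above all WO mice in *Scn3b*.

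The sensory neuron pore *Scn9a*, at a mean of 1.16, was the only pore gene of that role above 1. It missed the FDR in MY vs. MO (0.21, limma FDR 0.119) and in WO vs. MO (0.16, FDR 0.123). MO1, at 1.58, lay far above the other MO mice, which were between 1.19 and 1.28, and without MO1 the MY vs. MO change was 0.14 with an FDR of 0.0440 and the WO vs. MO change 0.09 with an FDR of 0.116. GENCODE places exons of an antisense gene of the table, *Gm13629*, over 180 exon bases of *Scn9a*. Whether the authors' summary used strand is not given in the sources used here, so reads of that stretch may belong to either gene.

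Among calcium channel pores, the Cav2 genes serve transmitter release and R-type current. *Cacna1a*, the P/Q-type pore that releases acetylcholine at the mature neuromuscular junction, was at 4.11, 4.09 and 4.16 in MY mice and 4.01, 4.18, 4.12, 4.05 and 4.10 in WO mice. It was at 4.01, 3.64, 3.90, 3.67 and 4.05 in MO mice and at 3.70, 4.07 and 4.06 in WY mice. MO2 and MO4 were lowest, MO5 lay within the WO range and MO1 just under it. The change was -0.26 ± 0.10 (SE) in MY vs. MO (limma FDR 0.0970) and -0.24 ± 0.08 (SE) in WO vs. MO (FDR 0.0537), both short of the FDR. In WO vs. MO it passed it without MO1 (FDR 0.0328) or MO5 (FDR 0.0246), among genes with a mean of at least 1 (0.0461), after quantile normalization (0.0401) and in a fit of all 4 groups (0.0492), and its FDR ran from 0.0246 to 0.161 over the alternatives.

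*Cacna1b*, the N-type pore, was at 3.23, 3.29 and 3.26 in MY mice and 3.02, 3.22, 3.13, 3.28 and 3.33 in WO mice. It was at 3.16, 2.81, 3.01, 2.89 and 3.14 in MO mice and at 3.14, 3.24 and 3.29 in WY mice. The MO mice lay below all MY mice but overlapped the WO mice. The change was -0.25 ± 0.08 (SE) in MY vs. MO (limma FDR 0.0565) and -0.19 ± 0.08 (SE) in WO vs. MO (FDR 0.108). Without MO1 or MO5 the MY vs. MO FDR was 0.0274 or 0.0412, within a range of 0.0274 to 0.162. It was also passed among genes with a mean of at least 1 (0.0471), after quantile normalization (0.0319) and in a fit of all 4 groups (0.0354), and in WO vs. MO after quantile normalization (0.0475). *Cacna1e*, the R-type pore, changed by -0.28 in MY vs. MO and missed the FDR (0.0642), except without MO1 (FDR 0.0340) or MO5 (FDR 0.0321) and after quantile normalization (0.0418). In WO vs. MO *Cacna1e* changed by -0.12 (FDR 0.399).

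The L-type pore *Cacna1c* passed the FDR in MY vs. MO (-0.34, limma FDR 0.0284) and missed it in WO vs. MO (-0.19, FDR 0.0774). Its MY vs. MO FDR was 0.0765 to 0.106 without MY1, MY2 or MY3 and 0.0504 to 0.0614 without MO3 or MO4, and its WO vs. MO FDR was 0.0370 without MO1, 0.0260 without MO5, 0.0225 after quantile normalization and 0.0403 in a fit of all 4 groups. The other L-type pore above 1, *Cacna1d*, missed the FDR in both comparisons, with changes of 0.08 and 0.04.

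Of the T-type pores, which open near rest and support burst firing, *Cacna1i* passed the FDR. It was at 2.94, 2.89 and 2.96 in MY mice, 2.78, 2.91, 2.85, 2.91 and 2.87 in WO mice and 2.72, 2.37, 2.58, 2.45 and 2.79 in MO mice, and at 2.61, 2.96 and 2.86 in WY mice. All MO mice lay below the MY mice, and MO5 reached the lowest WO mouse. The change was -0.35 ± 0.09 (SE) in MY vs. MO (limma FDR 0.0275) and -0.28 ± 0.08 (SE) in WO vs. MO (FDR 0.0197). The MY vs. MO call was lost without MY1 (FDR 0.0929), MY2 (0.0691), MY3 (0.0959) or MO3 (0.0552), in a range of 0.0108 to 0.0959. The WO vs. MO call was lost among batch 1 mice alone (FDR 0.0988, highest of its range from 0.00663). It was also lost with mice of the same number as a block (FDR 0.0552). *Cacna1g* missed the FDR in MY vs. MO (-0.23, FDR 0.187) and in WO vs. MO (-0.26, FDR 0.0583), in the latter except without MO5 (FDR 0.0165), among genes with a mean of at least 1 (0.0487), after quantile normalization (0.0370) and in a fit of all 4 groups (0.0299). *Cacna1h* changed by -0.07 in MY vs. MO and by -0.03 in WO vs. MO.

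The alpha2delta subunits carry calcium channels to the membrane and bind gabapentin in the case of *Cacna2d1* and *Cacna2d2*. *Cacna2d3* was at 4.78, 4.75 and 4.76 in MY mice, 4.77, 4.73, 4.83, 4.68 and 4.83 in WO mice and 4.46, 4.37, 4.38, 4.44 and 4.43 in MO mice. Every MO mouse lay below every MY and WO mouse, and the WY mice, at 4.42, 4.84 and 4.65, spread from the MO range upward. The change was -0.35 ± 0.04 (SE) in MY vs. MO (limma FDR 0.000542) and -0.35 ± 0.04 (SE) in WO vs. MO (FDR 0.000120), and both calls held under every alternative tried. *Cacna2d2* passed the FDR too, by -0.31 in MY vs. MO (limma FDR 0.0186) and by -0.32 in WO vs. MO (FDR 0.00309). Its MY vs. MO FDR was 0.0521 without MY1, 0.0694 without MY2 and 0.0717 without MY3. With mice of the same number as a block it was 0.0538.

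*Cacna2d1* was at 3.89, 4.00 and 3.95 in MY mice, 3.54, 3.77, 3.85, 3.79 and 3.75 in WO mice and 3.92, 3.88, 3.89, 3.86 and 3.89 in MO mice, and at 3.86, 3.86 and 3.82 in WY mice. The MO mice lay above every WO mouse and within or just below the MY range. The change missed the FDR in MY vs. MO (-0.06, limma FDR 0.290) and in WO vs. MO (0.15, FDR 0.0692), where it passed without WO3 (FDR 0.0422) and in a fit of all 4 groups (FDR 0.0325) and reached 0.236 at most.

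The beta subunits of calcium channels fold and traffic the pore. *Cacnb4* passed the FDR in MY vs. MO (-0.28, limma FDR 0.00453) under every alternative, and in WO vs. MO (-0.18, FDR 0.0419), where the groups overlapped and 11 of 17 alternatives lost the call, among them each mouse left out other than WO1, MO4 and MO5, with FDRs of up to 0.163. *Cacnb2* passed it only in MY vs. MO (-0.18, limma FDR 0.0396), where 12 of 15 alternatives lost the call, with FDRs of up to 0.176 and of 0.0661 to 0.142 without MY1, MY2, MY3, MO2, MO3, MO4 or MO5. MO1, at 3.67, lay far above the other MO mice in *Cacnb2*, which were between 3.46 and 3.51. *Cacnb1* and *Cacnb3* missed the FDR, although *Cacnb3* stood at 0.30 in WO vs. MO among batch 1 mice (FDR 0.0236), against 0.13 over both batches (FDR 0.296).

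The 6 gamma genes of the nervous system encode partners of AMPA receptors. *Cacng2*, whose product stargazin brings those receptors to the synapse, was at 4.22, 4.20 and 4.30 in MY mice and 4.10, 4.16, 4.42, 4.22 and 4.24 in WO mice. It was at 3.80, 3.65, 3.69, 3.75 and 3.90 in MO mice, below every MY and WO mouse, and at 3.52, 4.43 and 4.30 in WY mice, with WY1 below all MO mice. The change was -0.49 ± 0.06 (SE) in MY vs. MO (limma FDR 0.00101) and -0.47 ± 0.07 (SE) in WO vs. MO (FDR 0.000417), and both calls held under every alternative tried. *Cacng7*, the most abundant of the role, passed the FDR in MY vs. MO (-0.26, limma FDR 0.00753) and in WO vs. MO (-0.29, FDR 0.000783). *Cacng8* passed it in WO vs. MO (-0.20, limma FDR 0.0109) and missed it in MY vs. MO (-0.15, FDR 0.0732), except without MO3 (FDR 0.0254). The WO vs. MO FDR of *Cacng8* was 0.144 among batch 1 mice alone, and the MY vs. MO FDR of *Cacng7* was 0.0629 in a fit of all 4 groups.

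*Cacng3* was the 1 member higher past the FDR in MY vs. MO, and was named after its values were seen. It was at 3.43, 3.56 and 3.55 in MY mice and 3.64, 3.65, 3.70, 3.64 and 3.73 in MO mice, so that all MO mice lay above all MY mice. In WO mice it was at 3.69, 3.57, 3.40, 3.54 and 3.63, overlapping MO, and in WY mice at 3.72, 3.52 and 3.56. The change was 0.16 ± 0.05 (SE) with a limma FDR of 0.0333. The call was lost in 11 of 15 alternatives, with FDRs of 0.145, 0.0545 and 0.0717 without MY1, MY2 and MY3 and of 0.0504, 0.0701 and 0.0616 without MO2, MO3 and MO5. *Cacng4* and *Cacng5* missed the FDR in both comparisons.

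The batches gave the WO vs. MO differences separately, from 3 against 3 mice in batch 1 and 2 against 2 in batch 2. The MO mean minus the WO mean was -0.51 and -0.42 for *Scn8a*, -0.43 and -0.40 for *Scn1a*, -0.52 and -0.41 for *Cacng2*, -0.37 and -0.32 for *Cacna2d3*, and -0.29 and -0.27 for *Cacna1i*. It was 0.39 and 0.21 for *Scn3b*. These differences had the same sign in both batches. Among members with a mean of at least 1 the sign differed between batches in *Scn2a1* (0.09 and -0.13), *Scn3a* (0.18 and -0.11), *Cacnb3* (0.30 and -0.12), *Cacna1d* (0.12 and -0.08) and *Cacna1h* (0.01 and -0.09).

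The interaction asked whether the difference between old and young mice differed between the genotypes, as (MO - MY) - (WO - WY) over all 16 mice. Here 8 of 39 members (20.5%) passed the FDR with a negative value and 0 with a positive one, where 7.19% of all genes passed it negative. At an unadjusted p under 0.05 limma gave 17 of the 39 members and 5655 of the 18167 genes. After quantile normalization, which moved the all-gene split from 1903 positive and 1307 negative to 1682 and 1913, 11 members were negative and 1 positive. The median was -0.14 over the members, -0.05 without WY1 and -0.06 among batch 1 mice, and 0.01 over all genes. *Scn4b* (-0.77 ± 0.12 SE, limma FDR 0.000606) and *Scn8a* (-0.61 ± 0.15 SE, FDR 0.0120) were differentially expressed, against 0.963% of all genes with a negative value.

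Both kept their call at the FDR under all 22 alternatives, although without WY1, WO3, MO2 or MO3 1 member was differentially expressed and without WY2 4 were, in a range of 1 to 4. The WY group, with WY1 apart, enters every interaction value: without WY1 *Scn4b* stood at -0.63 (FDR 0.000508) and *Scn8a* at -0.46 (FDR 0.0285). *Cacna2d3* had an interaction of -0.48 (limma FDR 0.00395), and -0.37 without WY1 (FDR 0.00441). *Cacna1i* had -0.40 (FDR 0.0416), a call lost in 15 of 22 alternatives with FDRs of up to 0.125, the highest without WY1. The other 4 were *Cacna1c* (-0.45), *Cacna2d2* (-0.42), *Cacng7* (-0.47) and *Scn2b* (-0.34). Without WY1 *Cacng7* stood at -0.30 (FDR 0.0137), and it lost the call without MY1 (FDR 0.0561), MY2 (0.0561) or MY3 (0.0535) and among batch 1 mice alone (0.120).

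Several large interaction values missed the FDR. *Scn1a* stood at -0.63 (limma FDR 0.0736), with a range of FDRs from 0.0111 without WY2 and 0.0460 without WO1 to 0.194, and at -0.35 without WY1 (FDR 0.146). *Cacng2* stood at -0.63 (FDR 0.0526), and passed without WY1 (-0.35, FDR 0.0463), WY2 (FDR 0.0108) or WY3 (FDR 0.0382), among genes with a mean of at least 1 (0.0417) and after quantile normalization (0.0426), in a range up to 0.138. *Cacna1a* stood at -0.41 (FDR 0.0587), and passed without WY2 (FDR 0.0380), MO1 (FDR 0.0380) or MO5 (FDR 0.0327) and after quantile normalization (0.0476), in a range up to 0.170. *Scn3b* stood at 0.26 (FDR 0.0504), and passed without WO4 (FDR 0.00806) or MO4 (FDR 0.0440), among batch 1 mice (0.0198) and after quantile normalization (0.0493), in a range up to 0.127. *Cacna1b* (-0.22), *Scn2a1* (-0.14), *Cacna2d1* (0.04) and *Cacng3* (0.20) missed it with FDRs of 0.214, 0.567, 0.757 and 0.140.

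Age in control mice and genotype in young mice were compared in WY vs. WO and WY vs. MY. In WY vs. WO 0 members passed the FDR by limma, against 1.12% of all genes in either direction. At an unadjusted p under 0.05 limma gave 5 of the 39 members and 2447 of the 18167 genes. The largest change was that of *Cacng4*, singled out after its values were seen. Its level was 3.79, 3.94 and 4.01 in WY mice and 3.38, 3.48, 3.46, 3.76 and 3.57 in WO mice, so that every WO mouse lay below every WY mouse. The change was -0.38 (limma FDR 0.0977), and it passed the FDR without WO4 (-0.44, FDR 0.0406), among batch 1 mice (-0.47, FDR 0.0467) and with batch as a term (FDR 0.0318). In WY vs. MY 0 members passed the FDR, against 0.0055% of all genes. By limma 2 of the 39 members and 1301 of the 18167 genes had an unadjusted p under 0.05.

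Within each role the shares of the summed FPKM describe how the mixture of transcripts differed, as a description with no test. The 4 central pore genes summed to 100.3 ± 9.37 FPKM (SD, n = 5) in WO and 77.0 ± 6.33 (SD, n = 5) in MO mice. *Scn2a1* was 10.2% of the sum in WO and 13.3% in MO mice, while *Scn1a* was 50.3% and 48.6% and *Scn8a* 36.5% and 33.9%. In the alpha2delta role *Cacna2d1* was 21.9% of the sum in WO and 28.5% in MO mice, and *Cacna2d3* 46.4% and 42.0%. In the AMPA receptor partner role, whose sum was 150.003 FPKM in WO and 126 in MO mice, *Cacng2* was 11.9% and 9.91% and *Cacng3* 7.24% and 9.29%.

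The channels work with anchoring, regulatory and release proteins, given here as a list of 37 genes, all in the table. In MY vs. MO 17 of the 37 passed the FDR lower and 1 higher (12.5% and 13.1% of all genes), with a median change of -0.20. In WO vs. MO 15 passed it lower and 3 higher (12.9% and 15.0% of all genes), with a median of -0.17. Without MY1 10 passed it in MY vs. MO, and without MY3 9. Over all genes 1454 higher and 1132 lower calls remained without MY1, and 1511 and 1162 without MY3. With all mice there were 2377 and 2269. In the interaction 12 of the 37 were negative, where 7.19% of all genes were, and 1 positive, with a median of -0.24. The fibroblast growth factor homolog *Fgf11*, of a family that binds sodium channel tails, was at 4.61, 4.47 and 4.55 in MY mice, 4.78, 4.62, 4.56, 4.58 and 4.67 in WO mice and 3.92, 3.97, 3.95, 4.21 and 3.99 in MO mice. All MO mice lay below the others, and the change was -0.53 ± 0.07 (SE) in MY vs. MO (limma FDR 0.00117) and -0.63 ± 0.06 (SE) in WO vs. MO (FDR 5.32e-05), the 1 differentially expressed gene of the list in WO vs. MO.

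*Rims1*, which tethers calcium channels at release sites, changed by -0.54 in MY vs. MO (limma FDR 0.000615) and by -0.51 in WO vs. MO (FDR 7.53e-05), with every MO mouse between 3.57 and 3.79 and every MY and WO mouse between 4.09 and 4.29. *Rims1* was at 3.38, 4.27 and 4.15 in WY mice, with WY1 below every MO mouse. Its interaction was -0.82 (FDR 0.0122), and -0.54 without WY1 (FDR 0.00154, lowest of its range), and among batch 1 mice alone the FDR was 0.0664. *Ank3*, whose product ankyrin G clusters sodium channels at the initial segment and nodes, changed by -0.42 (limma FDR 0.00315) and -0.31 (FDR 0.00148), with MO mice from 4.82 to 5.09 and WO mice from 5.24 to 5.35. *Snap25*, a release protein bound by calcium channels, changed by -0.27 (limma FDR 0.0134, up to 0.0652 under the alternatives and lost without MY1 or MY3) and -0.41 (FDR 0.000259), and by -0.52 and -0.69 after quantile normalization. The sodium leak channel gene *Nalcn* changed by -0.29 (limma FDR 0.00347) and -0.24 (FDR 0.0105), and the WO vs. MO FDR was 0.164 among batch 1 mice alone.

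In WY vs. WO 1 partner gene passed the FDR, *Gem*, named after its values were seen, whose product is a small GTPase that restrains calcium channels. It was at 1.43, 1.72 and 1.66 in WY mice and 2.12, 2.28, 2.14, 2.24 and 2.09 in WO mice, all above the WY mice. The change was 0.57 ± 0.07 (SE) with a limma FDR of 0.0167, and FDRs of 0.0798 without WY3 and 0.0504 without WO2. In WY vs. MY 0 partner genes passed the FDR. By limma 2 of the 37 and 1301 of the 18167 genes had an unadjusted p under 0.05.

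Cell type markers moved in the same comparisons, and their part in the channel results was not tested. Of 7 motor neuron markers, 5 passed the FDR lower in MY vs. MO and 5 in WO vs. MO. Their summed level, led by *Prph*, was 139, 149 and 133 FPKM in MY mice, 170, 141, 144, 144 and 152 in WO mice, 107, 113, 91.6, 124 and 103 in MO mice and 124, 139 and 147 in WY mice. Of 6 pan-neuronal markers, 4 passed it lower in each comparison, and their sum, led by *Snap25*, ran from 2535 to 2625 FPKM in MY mice, from 2674 to 2983 in WO mice, from 2125 to 2342 in MO mice and from 2455 to 2507 in WY mice. *Snap25* is also in the partner list.

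Of 5 inhibitory interneuron markers, 3 passed the FDR lower in MY vs. MO and 2 in WO vs. MO, with *Pvalb* most abundant and sums of 320.9 to 337.6 FPKM in MY, 327 to 369 in WO, 253 to 317 in MO and 289 to 345 in WY mice. WY1, low in many channel genes, had the lowest inhibitory sum of the WY mice, 289, beside 330 and 345. Its level of the glycine transporter gene *Slc6a5* was 4.02, against 5.93 and 5.79 in WY2 and WY3. *Gad2* and *Slc32a1* were also lowest in WY1 among the WY mice. *Gad1* was at 6.10 in WY1, between WY2 and WY3 at 6.11 and 6.09. *Pvalb* was highest in WY1, at 7.09, against 6.72 and 7.01 in WY2 and WY3. Of 2 excitatory markers, 1 passed it lower in MY vs. MO and 2 in WO vs. MO, led by *Slc17a6*, with sums of 60.7 to 65.4 FPKM in MY, 54.5 to 65.04 in WO, 46.9 to 54.6 in MO and 48.7 to 66.6 in WY mice.

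Glial markers went in either direction. All 6 microglial markers passed the FDR higher in both comparisons, led by *Csf1r*, with sums of 61.5 to 66.0 FPKM in MY, 51.9 to 66.5 in WO, 131 to 178 in MO and 59.3 to 64.2 in WY mice. Of 5 astrocyte markers, 3 passed it higher in MY vs. MO and 5 in WO vs. MO, led by *Gfap*, with sums of 1274 to 1322 FPKM in MY, 934 to 1162 in WO, 2348 to 3232 in MO and 1402 to 1550 in WY mice. Of 5 oligodendrocyte markers, 3 passed it lower in MY vs. MO and 2 in WO vs. MO. Their sums, set by *Mbp*, were 13032 to 13946 FPKM in MY and 13188 to 15388 in WY mice. They differed between batches, from 6561 to 7142 in MO1 to MO3 against 21332 and 20751 in MO4 and MO5. In WO mice they were 8814 to 9568 in batch 1, 4489 in WO4 and 23150 in WO5, and *Mbp* stood at 5.36 in WO4, against at least 12.16 in the other mice. Whether the batch adjustment made this value was not tested, so these sums are uncertain. Of 4 oligodendrocyte precursor markers, led by *Sox10*, 2 passed it lower in MY vs. MO and 0 in WO vs. MO, with sums of 89.5 to 93.3 FPKM in MY, 64.2 to 77.5 in WO, 54.8 to 77.4 in MO and 86.6 to 93.3 in WY mice.

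Of 6 sensory neuron markers in the table, with *Tlx3* most abundant, 1 passed the FDR higher in MY vs. MO (*Avil*, 0.39, limma FDR 0.00600) and 2 higher and 2 lower in WO vs. MO, with sums of 3.28 to 3.78 FPKM in MY, 3.26 to 4.18 in WO, 3.52 to 4.99 in MO and 3.60 to 4.46 in WY mice. Of 8 skeletal muscle markers, led by *Mylpf*, 1 passed it higher in MY vs. MO (*Tnni2*, 0.98, FDR 0.00287) and 1 higher and 1 lower in WO vs. MO, with sums of 2.78 to 5.68 FPKM over all mice. Of 5 Schwann cell markers, led by *Ncmap*, 1 passed it higher and 1 lower in MY vs. MO and 1 higher in WO vs. MO, with sums of 1.42 to 3.36 FPKM. Of 3 endothelial markers, led by *Cldn5*, 0 passed it in MY vs. MO and 2 passed it lower in WO vs. MO, with sums of 21.6 to 41.7 FPKM. In each of the meningeal fibroblast, blood and sex lists 0 passed it in either comparison. Their most abundant genes were *Dcn*, *Hba-a1* and *Ddx3y*, and MO1 had the lowest blood sum, 11.7 FPKM against 43.3 to 96.8 in the other mice.

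All 39 members were placed by GENCODE M21 on GRCm38. Among those named above, *Scn4b* at chr9:45138395-45154152 (plus strand), *Scn8a* at chr15:100869858-101045938 (plus strand), *Scn1a* at chr2:66270778-66440840 (minus strand), *Scn2a1* at chr2:65620771-65767447 (plus strand), *Scn2b* at chr9:45117782-45130070 (plus strand), *Scn3b* at chr9:40269217-40291618 (plus strand) are sodium channel genes. The calcium channel and gamma genes are *Cacng2* at chr15:77991748-78120028 (minus strand), *Cacng3* at chr7:122670492-122769393 (plus strand), *Cacna1i* at chr15:80287238-80398279 (plus strand), *Cacna1a* at chr8:84388440-84640246 (plus strand), *Cacna1b* at chr2:24603887-24763152 (minus strand), *Cacna2d1* at chr5:15934691-16374511 (plus strand) and *Cacna2d3* at chr14:28904943-29721864 (minus strand). Several members are neighbours. *Scn2b* and *Scn4b* lie 8.3 kb apart on chromosome 9, and both passed the FDR lower in both comparisons. *Cacng7* and *Cacng8* lie 22.5 kb apart on chromosome 7 and passed it lower in WO vs. MO. In the sodium channel cluster of chromosome 2, chr2:65457118-66784914, which spans 1.33 Mb with *Scn3a*, *Scn2a1*, *Scn1a*, *Scn9a* and *Scn7a*, *Scn1a* was the 1 gene of 5 that passed it. Of the 39 members, 11 share exon bases with another GENCODE gene, among them 5 of the 14 that passed the FDR lower in either comparison: *Cacna2d2*, *Cacnb2*, *Cacnb4* (1433 bases), *Cacng2* and *Cacng8*. In *Cacna1d*, *Cacna1h* and *Scn9a* the other gene is in the table, and in those 5 it is not. The median length of the longest transcript was 5658.5 nucleotides in the 12 members lower in MY vs. MO and 7681 in the other 18 with a mean of at least 1.

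RefSeq promoter windows on GRCm38.p6, 250 bases before to 50 after a start, were at hand for 29 members, 13 of them among the 14 that passed the FDR lower in either comparison. Motif letters were searched on both strands in all 32851 windows. The GC box GGGCGG was found in 15 of 29 members, in 6 of the 13 lower members and in 6 of the 10 other members with a mean of at least 1, and in 38.2% of 27025 genes. TATAAA was found in 2 of 29 members, *Cacna1d* and *Scn2a1*, and in 15.7% of genes. The cyclic AMP response element TGACGTCA was found in 0 members and 2.03% of genes. TTCAGCACC, the start of the RE1 element of neuronal genes, was found in 0 members and 0.433% of genes. These matches are descriptions of letters and no measure of binding.

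The windows of 3 members that passed the FDR lower in both comparisons are printed as examples, picked without a stated rule. Among windows of members lower in either comparison, G and C was lowest in that of *Scn2b* (38.3%). It was highest in *Cacna2d3* and a window of *Cacna1c* (81.3%), around a median of 62.0%. The 3 windows are printed 5′ to 3′ on the gene's strand, up to the last base before the gene's first annotated exon. The GC box or its reverse complement is in capitals. That of *Scn1a* is chr2:66440841-66441087 on the minus strand, has 4 CpG and 0 GC boxes in 247 bases at 47.4% G and C, and overlaps an exon of the antisense gene *Gm13629* on the plus strand. That of *Scn2b* is chr9:45117626-45117781 on the plus strand, with 0 CpG in 156 bases at 35.3% G and C. That of *Cacna2d3* is chr14:29721865-29722114 on the minus strand, with 30 CpG and 4 GC boxes in 250 bases at 80.0% G and C.
Scn1a: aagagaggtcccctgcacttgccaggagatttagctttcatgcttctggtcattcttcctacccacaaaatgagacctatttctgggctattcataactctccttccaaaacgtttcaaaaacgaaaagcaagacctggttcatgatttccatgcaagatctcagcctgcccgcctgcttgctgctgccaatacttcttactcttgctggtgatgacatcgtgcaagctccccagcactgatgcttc
Scn2b: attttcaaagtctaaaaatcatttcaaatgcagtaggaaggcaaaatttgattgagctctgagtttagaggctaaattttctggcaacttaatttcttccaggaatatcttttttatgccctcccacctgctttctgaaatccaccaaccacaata
Cacna2d3: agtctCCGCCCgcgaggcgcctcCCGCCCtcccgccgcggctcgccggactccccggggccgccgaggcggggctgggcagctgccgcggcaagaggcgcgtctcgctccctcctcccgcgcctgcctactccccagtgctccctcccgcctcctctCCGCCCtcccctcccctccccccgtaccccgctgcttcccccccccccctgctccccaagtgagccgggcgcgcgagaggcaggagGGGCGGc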

How the data were processed

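The data are RNA sequencing of spinal cord from 16 mice in 4 groups, 3 WY, 3 MY, 5 WO and 5 MO. Per the sources used here, RNA was extracted with Trizol, libraries were made with the TruSeq stranded mRNA kit and sequenced on an Illumina NextSeq, and the authors cleaned the reads (Trimmomatic), placed them on the mouse genome mm10 (TopHat) and derived FPKM (Cufflinks), versions not given in the sources used here. The deposited values are log2 of FPKM plus 1, which the authors then adjusted for the 2 library batches with ComBat, its covariates not given. The table holds 18167 genes, and genes at 0 in many mice had been removed by the authors. The adjustment leaves 915 values below 0, 2 of them in members, which were kept as they are. No read counts were analysed here, so the reads behind each gene are unknown.

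Each comparison was fitted with limma 3.58.1 in R 4.3.3 on the mice of its own groups, with Benjamini-Hochberg FDRs over all genes, and the interaction on all 16 mice. The calling code was tested on simulated data, with changes larger than those of any member planted in genes of below-median spread. Recovery of changes as small as those of the members was not tested. Members were taken by symbol, matched to GENCODE M21 on GRCm38, and given roles from general knowledge. Tables were made with Python 3.11.15, pandas 2.3.3, NumPy 2.4.6 and SciPy 1.17.1, and figures with matplotlib 3.10.9. Shares within a role were computed from FPKM, recovered as 2 to the power of the value minus 1.

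Values per mouse are printed for members differentially expressed anywhere, for the 5 largest changes past the FDR in each of the 4 comparisons of 2 groups, and for the fixed members *Scn1a*, *Scn8a*, *Scn2a1*, *Cacna1a*, *Cacna1b* and *Cacna2d1*. The other members named for passing the FDR, *Gem* among the partners, and *Scn3b*, *Cacng3* and *Cacng4* with their values per mouse were named after their values were seen. Members, roles, partners (the 4 of largest change and *Nalcn* named) and markers were fixed lists, chosen with earlier results of these data known.

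Marker lists were read for motor neurons, all neurons, inhibitory and excitatory neurons, sensory neurons, skeletal muscle, Schwann cells, astrocytes, microglia, oligodendrocytes and their precursors, endothelium, meningeal fibroblasts, blood and sex. Promoter windows were 250 bases before to 50 after each RefSeq start on GRCm38.p6.

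Alternatives were mice of batch 1 alone, batch as a term, genes with a mean of at least 1, a pseudocount of 0.1, quantile normalization, all groups in 1 fit, a replicate block, and each mouse left out.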

Additional observations from a re-analysis of the deposited data

Results flagged for a closer look

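In 3 of the 78 groups of 5 mice examined among the members, 1 mouse lay far from the other 4, and chance alone gives about 1 in 20 groups. MO1 was at 3.672 in *Cacnb2*, where the other MO mice were between 3.461 and 3.509. MO5 was at 4.836 in *Scn2b*, where the others were between 4.632 and 4.681. MO1 was at 1.575 in *Scn9a*, where the others were between 1.193 and 1.275. The 3 of 78 groups do not exceed that rate, and whether anything set these mice apart was not tested.

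In 8 members the difference between old and young mice differed between the genotypes by the limma interaction at an FDR at or below 0.05. The values were -0.448 in *Cacna1c*, -0.401 in *Cacna1i*, -0.424 in *Cacna2d2* and -0.480 in *Cacna2d3*. They were -0.475 in *Cacng7*, -0.342 in *Scn2b*, -0.768 in *Scn4b* and -0.611 in *Scn8a*. All 8 are negative, so that MO minus MY lay below WO minus WY. Each rests in part on the 3 WY mice, of which WY1 had low levels in many members.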

How the results depend on the processing

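Of the members past the FDR, 7 of 13 in MY vs. MO, 8 of 13 in WO vs. MO and 6 of 8 in the interaction passed it under every alternative, and each kept its sign. *Scn4b*, *Scn8a*, *Cacna2d3* and *Scn2b* did so in all 3. Of the alternatives for the 12 members and 5 partner genes followed by name, 844 kept direction and side of the threshold, 31 newly passed it, 38 no longer passed it and 5 changed sign.

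The 5 sign changes were small. *Scn2a1* in WO vs. MO stood at -0.0133 after quantile normalization, -0.0511 without WO1, the lowest value with a mouse left out (highest 0.0476, without WO4), and -0.0494 without MO1. Its interaction stood at 0.0005 without WY1 (lowest -0.2531, without WY2). *Cacna2d1* stood at -0.0061 in the interaction without WO1 (highest with a mouse left out 0.0721, without WO3, and 0.0753 among batch 1 mice). The cause was not tested.

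With batch 1 alone, with batch as a term and with the replicate block, 1 member was differentially expressed in MY vs. MO instead of 0. In WY vs. WO 1 member passed the FDR instead of 0 with batch 1 alone and with batch as a term. With batch 1 alone, which has fewer mice, partner genes past the FDR went from 18 to 8 in WO vs. MO, from 1 to 0 in WY vs. WO and from 13 to 8 in the interaction. Over all genes, higher and lower calls went from 2730 and 2345 to 1548 and 1064 in WO vs. MO. They went from 42 and 162 to 32 and 156 in WY vs. WO, and from 1903 and 1307 to 1457 and 791 in the interaction.

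With the replicate block, partner genes went from 18 to 11 in MY vs. MO and from 1 to 0 in WY vs. WO. Members past the FDR numbered 10 in MY vs. MO, 10 in WO vs. MO and 7 in the interaction. In the other comparisons limma gave 0. Over all genes the block left 2055 higher and 1691 lower calls in MY vs. MO and 2319 and 1796 in WO vs. MO. In the interaction it left 1763 and 1106. Without the block, 5 members in WY vs. WO and 2 in WY vs. MY had an unadjusted limma p under 0.05. Over all 18167 genes the numbers were 2447 and 1301. *Cacna1i* in WO vs. MO (FDR 0.0552, range from 0.00663 to 0.0988) and *Cacna2d2* in MY vs. MO (FDR 0.0538, at most 0.0717) missed the FDR with the block, as did *Snap25* in MY vs. MO (0.0630, at most 0.0652). Of 14 pairs of mice with the same number, 4 correlated above 0.1 (r from -0.207 to 0.377). Over the comparisons a mouse matched best with its own number in 11 of 28 cases. That count was not set against chance, so whether the numbers mark a pairing was not tested. In MY vs. MO, MY1 and MO1 (r 0.177), MY2 and MO2 (0.085) and MY3 and MO3 (0.151) each matched best with one another. There the block took the calls of *Cacna2d2*, *Cacnb2* (FDR 0.176) and *Cacng3* (FDR 0.119).

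With 1 mouse left out, differentially expressed members ranged from 0 to 1 in MY vs. MO, stayed at 1 in WO vs. MO and ranged from 1 to 4 in the interaction. Members past the FDR ranged from 8 to 17 in MY vs. MO, from 11 to 15 in WO vs. MO, from 0 to 1 in WY vs. WO (1 without WO4) and from 6 to 12 in the interaction. Partner genes ranged from 9 to 19, 17 to 21, 0 to 1 and 9 to 15. All-gene calls in MY vs. MO ran from 1454 higher and 1132 lower without MY1 to 2733 and 2397 without MO1. In WO vs. MO they ran from 2244 and 1764 without WO5 to 2816 and 2325 without MO1. In WY vs. MY all counts were 0 by limma, where 2 members and 1301 of the 18167 genes had an unadjusted p under 0.05. After quantile normalization 17, 18 and 12 members passed the FDR in MY vs. MO, WO vs. MO and the interaction.

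The data have limits that no alternative removes. Values were already adjusted for batch, with covariates not given. All young mice were in batch 1, and in WO mice age and batch go together. MO mice differ from MY mice in age and in disease stage at once, and each genotype is 1 transgenic line. The label male does not match MO5. The reads behind each gene are unknown, so the precision of genes of low level cannot be separated from the spread between mice, and FPKM per gene does not show which transcripts or exons were read.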
